A study of Homo sapiens with 9 samples.

Results

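The data described here are the transcriptional change that 2 knockdowns had in common. The 3 shARNT libraries and the 3 shBMAL1 libraries were set together as one side, with 6 libraries, against the 3 shControl libraries. A gene was kept where the mean of shARNT and the mean of shBMAL1 lay on the same side of the mean of shControl. Of 38021 genes in the table, 17320 were tested, and 11380 of those met the rule. Both means lay above shControl for 5836 genes and below it for 5544 genes, while 5940 genes lay on opposite sides and were not kept.

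All 9 libraries came from 786-O cells, an established human line from a clear cell renal cell carcinoma (ccRCC) that lacks functional VHL, and the labels give the genotype of all groups as WT. The cells were infected with a pLKO.1 lentivirus made in HEK293T cells, selected and kept in puromycin, and grown in serum-containing medium. The virus delivered a short hairpin RNA (shRNA) against ARNT in the shARNT cells, against BMAL1 in the shBMAL1 cells and a control hairpin in the shControl cells, with 3 libraries of each, which the labels call biological replicates. The labels name a single shRNA for each target and a single control, which both comparisons of a knockdown with control share, so a change common to both knockdowns cannot be told apart from a change in the control cells.

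ARNT and BMAL1 belong to the bHLH-PAS family of transcription factors, which bind DNA as heterodimers. ARNT is the usual partner of the HIFα subunits at hypoxia response elements, and BMAL1 is the usual partner of CLOCK at E-boxes. Without VHL the α subunit HIF2α (EPAS1) is not degraded at normal oxygen, and its targets stay expressed. Interferon-stimulated genes are held at their basal or induced level mainly by STAT and IRF factors bound to the interferon-stimulated response element (ISRE).

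Library totals ran from 33793043 to 35444731 reads, and between 20068 and 20778 genes were detected. Mitochondrially encoded genes took 5.46% to 7.14% of reads in shControl, 7.59% to 8.74% in shARNT and 8.71% to 9.66% in shBMAL1. Renal carcinoma markers were present in every library, with a summed level of 245761 to 273416 normalised read counts over 10 genes. The T cell gene CD3E, the endothelial gene CDH5 and LIN28B, a marker of the packaging cells, were at 0 in all libraries. The hepatocyte genes ALB, APOA1 and TTR had at most 6.05 normalised read counts. CD68 and NEFL, listed for leukocytes and packaging cells, were expressed in all groups, at 5325 to 7882 and 3298 to 6122 normalised read counts, and NEFL was called raised (log2 fold change 0.42, adjusted p = 0.097). The 3 fibroblast markers summed to 94.0 to 143 normalised read counts in shControl, 87.7 to 94.3 in shARNT and 194 to 235 in shBMAL1, most of it LUM, which was not called in the pooled comparison. The part of these markers in the results was not tested. In bulk RNA, fewer cells of a type and less RNA per cell cannot be told apart.

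The targeted genes were measured first. ARNT (chr1:150782189-150849184 on GRCh37) had normalised read counts of 2187, 2551 and 2318 in shControl, 1239, 1238 and 1199 in shARNT and 2072, 1928 and 2043 in shBMAL1. BMAL1 (chr11:13298199-13408813), which the table lists as ARNTL, had 752, 797 and 735 in shControl, 676, 656 and 568 in shARNT and 346, 292 and 339.8 in shBMAL1. Each transcript was lowest in the libraries of its own shRNA, and each was also lower in the other knockdown than in shControl, with no overlap. The pooled log2 fold change of ARNT was -0.54 ± 0.20 (SE, adjusted p = 0.04) and that of ARNTL was -0.67 ± 0.25 (SE, adjusted p = 0.05). The ARNT call was lost without shControl replicate 2 (adjusted p = 0.2) or shControl replicate 3 (adjusted p = 0.13). The ARNTL call was lost in edgeR (adjusted p = 0.101) and without any of the 3 control libraries (adjusted p = 0.14 to 0.19). EPAS1 (chr2:46520806-46613836), which encodes HIF2α, had 11766, 10799 and 10764 in shControl, 9920.3, 9591 and 8767 in shARNT and 11324, 10241 and 10401 in shBMAL1, and its pooled change of -0.15 ± 0.09 did not pass the test (adjusted p = 0.28).

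The pooled comparison asked which transcripts moved the same way whichever partner was depleted. DESeq2 called 3844 genes, 22.2% of those tested, at an adjusted p under 0.1. Of these, 1866 were raised in common, 10.8% of genes tested, and 1972 were lowered in common, 11.4%. The other 6 called genes lay on opposite sides. The median size of the change was 0.52 on the log2 scale for raised genes and 0.41 for lowered genes, against 0.20 for all genes tested. At least a 2-fold change was reached by 422 raised and 212 lowered genes.

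The 6 knockdown libraries all lay above the 3 control libraries for 1352 of the raised genes, and all below for 1702 of the lowered genes. Over all genes tested those shares were 9.06% above and 11.4% below. Tested alone against the same controls, shARNT gave calls for 35.4% and shBMAL1 for 36.8% of all genes tested in each fit. Of the genes common to the pooled comparison, 1075 raised genes were called in each knockdown, 728 in a single knockdown and 63 in neither. The same counts for lowered genes were 1586, 362 and 24. Leaving out any of the 3 control libraries took the raised genes to 1109 to 1138 and the lowered genes to 1258 to 1297, whereas without a knockdown library they were at least 1553 and 1736. A DESeq2 fit with the 3 groups kept apart called 2621 raised and 3100 lowered genes, 15.1% and 17.9% of the 17319 it tested, and counts given below from the 3-group fit stand against those shares. At the edge of the threshold, ZNF649 lay just inside (log2 fold change 0.45, adjusted p = 0.0999) and TPRA1 just outside (-0.26, adjusted p = 0.1001).

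**Figure D1:**
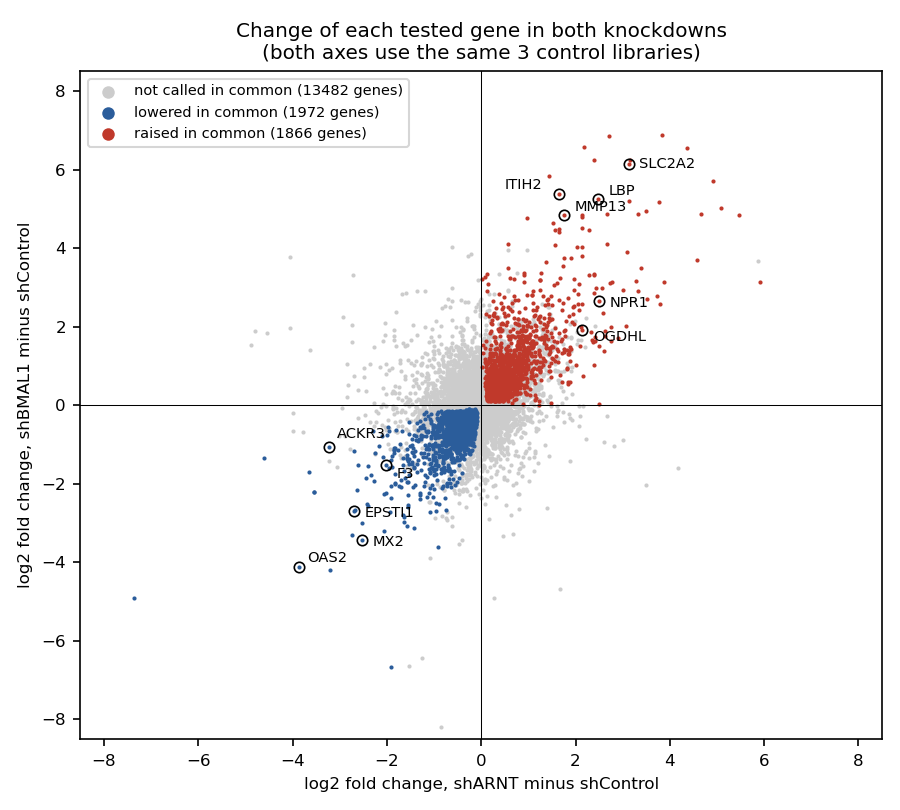
Each point is a tested gene, with its log2 fold change in shARNT (horizontal) and shBMAL1 (vertical) against the same 3 control libraries; red marks the 1866 genes raised in common and blue the 1972 lowered in common. The shared controls place noise of the control libraries on both axes, and 1 gene lies outside the plotted range. OAS2 is far down the diagonal, while SLC2A2, LBP, ITIH2 and MMP13 lie well above it.

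Where a gene is given with values in brackets alone, these are its pooled log2 fold change ± SE and its DESeq2 adjusted p, with 6 knockdown and 3 control libraries. The 12 most raised common genes, ranked by the smaller of their 2 changes, were SLC2A2, NPR1, LBP, OGDHL, NEBL, MMP13, NRCAM, ITIH2, KCCAT211, PPARGC1A, AQP3 and NR1H4. They came from the 1094 raised genes with separated libraries and a mean of at least 100 normalised read counts on the higher side. Some had like changes in both knockdowns, and others a much larger change in shBMAL1.

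SLC2A2 (chr3:170714136-170744532), the glucose transporter GLUT2 of liver and proximal tubule, had normalised read counts of 12.1, 8.997 and 2.02 in shControl, 54.6, 68.7 and 78.5 in shARNT and 510.3, 586 and 543 in shBMAL1. The groups did not overlap, and shBMAL1 stood well above shARNT. The pooled log2 fold change was 5.32 ± 0.99 (SE, adjusted p = 3.2e-06), and the direct comparison of shBMAL1 with shARNT gave 3.02 ± 0.17 (adjusted p = 6.7e-72).

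LBP (chr20:36974885-37005655), the acute-phase lipopolysaccharide-binding protein, had 3.02, 12.995 and 3.03 in shControl, 35.1, 51.1 and 19.9 in shARNT and 285, 272 and 171 in shBMAL1. It was at 13.0 or fewer normalised read counts in shControl, and its groups did not overlap, with a pooled change of 4.45 ± 0.99 (SE, adjusted p = 0.00017). ITIH2 (chr10:7745279-7791483), a heavy chain of the inter-α-trypsin inhibitors that bind hyaluronan, had 11.1, 11.996 and 9.10 in shControl, 29.2, 35.4 and 35.8 in shARNT and 472, 429 and 446 in shBMAL1. Its pooled change was 4.49 ± 1.05 (SE, adjusted p = 0.00036), and the direct difference was 3.75 ± 0.20 (adjusted p = 1.2e-77). AQP3 (chr9:33441154-33447594), a water and glycerol channel, had 28.2, 23.99 and 24.3 in shControl, 47.7, 102 and 69.6 in shARNT and 689, 677 and 544 in shBMAL1, with a pooled change of 3.80 ± 0.92 (SE, adjusted p = 0.00063). Both knockdowns lay above shControl for these genes, and shBMAL1 lay far above shARNT.

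MMP13 (chr11:102813724-102826461), the collagenase 3 of matrix turnover, had 184, 165 and 162 in shControl, 621, 558 and 551 in shARNT and 5017, 4998 and 4736 in shBMAL1. It was the most abundant of the 12 in shBMAL1, its libraries agreed closely within each group, and its pooled change was 4.01 ± 0.88 (SE, adjusted p = 0.00011). PPARGC1A (chr4:23756664-23905712), a coactivator of mitochondrial biogenesis and gluconeogenesis, had 50.3, 60.98 and 36.4 in shControl, 156, 179.7 and 93.4 in shARNT and 384, 432 and 428 in shBMAL1, a change of 2.50 ± 0.54 (SE, adjusted p = 9.5e-05). NR1H4 (chr12:100867486-100958192), the bile acid receptor FXR, had 119, 116 and 113 in shControl, 342, 342 and 293 in shARNT and 629, 734 and 690.4 in shBMAL1, a change of 2.12 ± 0.29 (SE, adjusted p = 2.2e-11). The 3 groups of NR1H4 were fully separated in the order shControl, shARNT, shBMAL1.

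Like changes were seen in NPR1, OGDHL and NRCAM. NPR1 (chr1:153651164-153666468), the natriuretic peptide receptor that makes cyclic GMP, had 34.2, 26.99 and 21.2 in shControl, 192, 119.8 and 153 in shARNT and 184, 162 and 175 in shBMAL1, a pooled change of 2.58 ± 0.24 (SE, adjusted p = 1.1e-24). The shARNT and shBMAL1 libraries overlapped, and the direct difference was 0.16 ± 0.20 (adjusted p = 0.6). OGDHL (chr10:50942687-50970425), a relative of the 2-oxoglutarate dehydrogenase subunit, had 48.3, 29.99 and 49.5 in shControl, 190.0, 198 and 175 in shARNT and 143, 164 and 171 in shBMAL1, a change of 2.03 ± 0.20 (SE, adjusted p = 4.3e-21), with a direct difference of -0.24 ± 0.17 (adjusted p = 0.33).

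NRCAM (chr7:107788068-108097161), an immunoglobulin-type adhesion molecule, had 97.6, 87.97 and 73.8 in shControl, 311, 271 and 229 in shARNT and 334, 309 and 278 in shBMAL1, a pooled change of 1.74 ± 0.17 (SE, adjusted p = 7.2e-23). Its direct difference was 0.18 ± 0.15 (adjusted p = 0.41), and the knockdown libraries overlapped. NEBL (chr10:21068902-21581940), the actin-binding nebulette, had 91.6, 74.97 and 64.7 in shControl, 294, 284 and 259 in shARNT and 317, 386 and 410.3 in shBMAL1, a change of 2.08 ± 0.19 (SE, adjusted p = 5.2e-24). KCCAT211, by its name a transcript associated with clear cell kidney cancer, had 49.3, 39.99 and 37.4 in shControl, 231, 231 and 193 in shARNT and 122, 126 and 140.0 in shBMAL1, a change of 2.04 ± 0.27 (SE, adjusted p = 5.9e-12). It was the single gene of the 12 that was higher in shARNT than in shBMAL1 by the direct comparison (-0.75 ± 0.18, adjusted p = 0.00013). Reads of overlapping genes cannot be assigned with certainty here, because no source used here gives the strand setting.

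**Figure D2:**
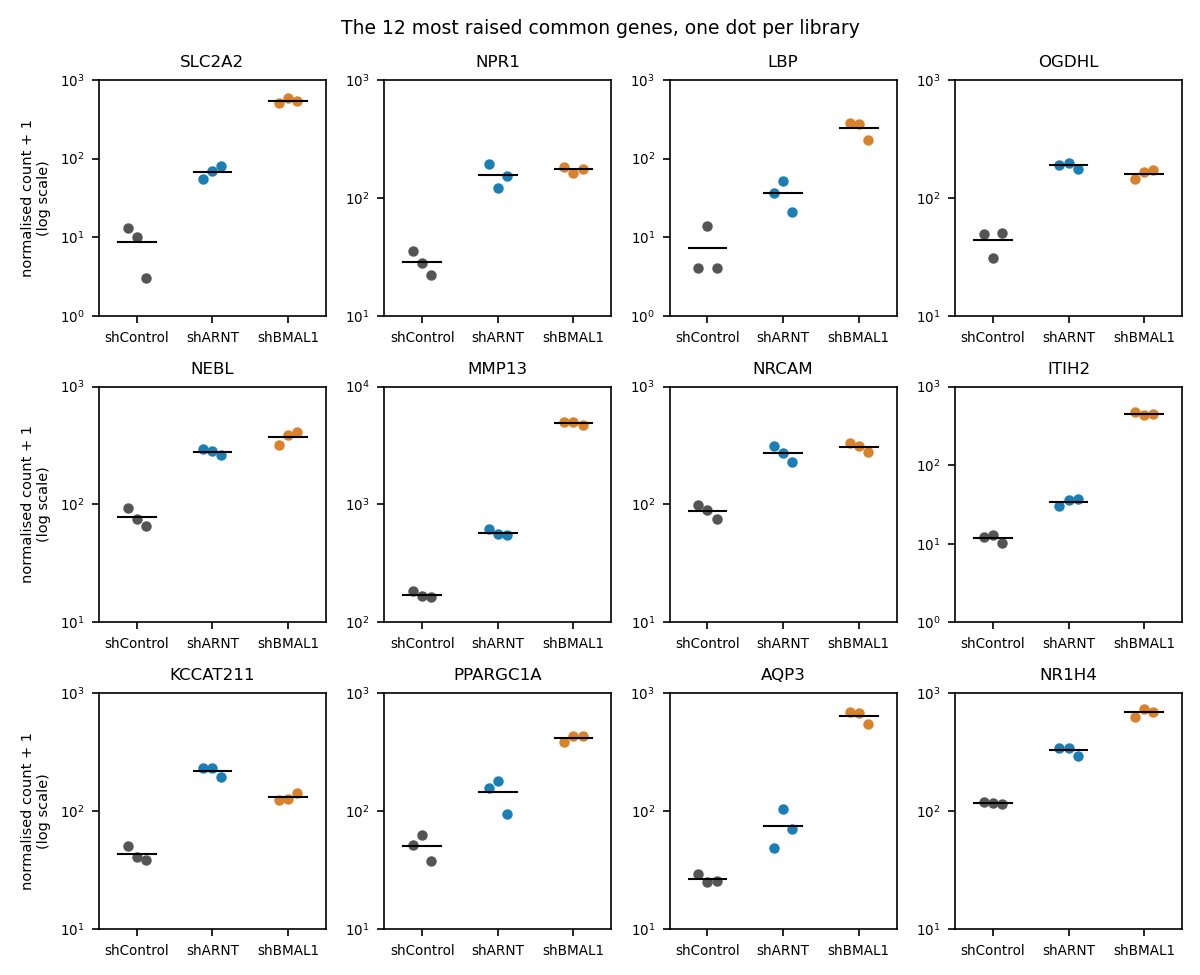
Normalised read counts plus 1 on a log axis for the 12 most raised common genes, with 1 dot per library, a bar at the group mean and 3 libraries per group. In every panel the 6 knockdown libraries lie above the 3 control libraries; SLC2A2, LBP, MMP13, ITIH2 and AQP3 are far higher in shBMAL1 than in shARNT, while NPR1 and NRCAM overlap between the knockdowns.

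Genes were next described by lists of known function. Each list is given as members raised, lowered and tested, read against the 10.8% raised and 11.4% lowered over all genes tested and a median change of 0.02. A low-level member could be tested only if it was high enough in some library, so the number not tested is given for the 8 lists with 10 or more such members, and the other lists had at most 6 each. List counts of 5 or fewer often moved past 1.5 times under the alternatives. In a fit with the 3 groups kept apart, the lowered counts of the collagen, TGF-β and YAP, epithelial and mesenchymal and cell death lists were 6 each in place of 3, the raised count of glucose genes was 6 in place of 3, and the lowered count of antioxidant genes was 4 in place of 1.

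The complement list, the blood cascade that opsonises and lyses targets, had 10 of 22 tested members raised and none lowered, with 11 of 33 measured members not tested. Its median log2 fold change was 0.63. CFHR3, a secreted regulator of the cascade, had normalised read counts of 43.3, 55.98 and 27.3 in shControl, 97.4, 101 and 96.4 in shARNT and 207, 183 and 211 in shBMAL1, a pooled change of 1.82 ± 0.34 (SE, adjusted p = 2.4e-06). Its groups were fully separated in the order shControl, shARNT, shBMAL1. It has near-identical relatives, so reads could be shared. Without shControl replicate 3, 6 members were raised.

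Liver-type plasma proteins, which are secreted into blood, had 10 of 23 tested members raised and 2 lowered, with a median of 0.47, and 31 of 54 were not tested. ITIH2 and LBP led the list. All 9 of the 12 called members that differed directly were higher in shBMAL1. Among all raised common genes that differed directly, 600 of 727 were higher in shBMAL1. The count of raised members was 6 without any of the 3 control libraries and 4 when a call in each knockdown alone was required. ALB, APOA1 and TTR, the defining hepatocyte genes, stayed near 0.

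Proximal tubule genes for transport and metabolism, the functions of the cells from which ccRCC is held to arise, had 11 of 24 tested members raised and 4 lowered, with a median of 0.47, and 15 of 39 were not tested. SLC2A2 led the raised members. The lowered members included MIOX, the inositol oxygenase of kidney cortex (-0.62 ± 0.11, adjusted p = 3.7e-07), and PCK2, the mitochondrial PEP carboxykinase (-0.71 ± 0.22, adjusted p = 0.014). The count raised fell to 6 or 7 without any single control library or without shBMAL1 replicate 1 or 3, and to 6 when a call in each knockdown alone was required.

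Kidney and liver lineage transcription factors had 9 of 25 tested members raised and 1 lowered, with a median of 0.24, and 10 of 35 were not tested. Beside NR1H4, CEBPD, a C/EBP factor of the acute-phase response, rose (0.79 ± 0.19, adjusted p = 0.00047). LHX1, a homeobox factor of the early kidney, fell (-0.33 ± 0.11, adjusted p = 0.019), a call lost without shControl replicate 2 (adjusted p = 0.15). The count raised was 5 without shControl replicate 1 and 4 without shControl replicate 3. PAX8 and PAX2, which mark the renal lineage, were not called in common.

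Drug and steroid metabolism had 9 of 28 tested members raised and 2 lowered, with a median of 0.24, and 20 of 48 were not tested. AKR1C3 (chr10:5077546-5149878), an aldo-keto reductase of steroids and prostaglandins, had 593, 675 and 495 in shControl, 1438, 1398 and 1271 in shARNT and 1714, 1528 and 1433 in shBMAL1, a pooled change of 1.32 ± 0.12 (SE, adjusted p = 4.9e-24). AKR1C1 rose as well (1.15 ± 0.29, adjusted p = 0.0012), and these reductases are near-identical, so reads could be shared. SULT1C2, a sulfotransferase, rose (1.12 ± 0.23, adjusted p = 2.1e-05), and CYP4F11, a fatty acid hydroxylase, fell (-0.57 ± 0.14, adjusted p = 0.0005). Among antioxidant genes under NRF2, 7 of 27 tested members were raised and 1 lowered, with HMOX1, heme oxygenase, at 0.76 ± 0.25 (SE, adjusted p = 0.017). The list's median change was 0.04, with 0.18 in shARNT and -0.09 in shBMAL1.

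Of matrix metalloproteinases and their inhibitors, 6 of 19 tested members were raised and 1 lowered. MMP1, the interstitial collagenase, had 137, 174 and 159 in shControl, 316, 321 and 269 in shARNT and 693, 734 and 706 in shBMAL1, a pooled change of 1.69 ± 0.41 (SE, adjusted p = 0.00056), and MMP14, a membrane-bound collagenase, fell (-0.32 ± 0.06, adjusted p = 8.9e-06). The count of raised metalloproteinases was 2 without any of the 3 control libraries, 3 without shBMAL1 replicate 1, 3 with the replicate block and 3 when a call in each knockdown alone was required.

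Of integrins and laminins, 6 of 29 were raised and 7 lowered. LAMA5 (chr20:60883011-60942368), a laminin chain of kidney basement membranes, had 1117, 1117 and 1153 in shControl, 3179, 2770.3 and 2612 in shARNT and 5031, 4390.0 and 4829.5 in shBMAL1, a change of 1.75 ± 0.20 (SE, adjusted p = 1.9e-15). LAMB3 (chr1:209788215-209825770), a chain of the laminin of epidermal attachments, moved the other way, with 3570.0, 3787 and 4082 in shControl, 1588, 1730.3 and 1755 in shARNT and 1597, 1557 and 1412 in shBMAL1 and a change of -1.25 ± 0.09 (SE, adjusted p = 5e-41). ITGA2, a collagen receptor subunit, fell (-0.72 ± 0.07, adjusted p = 3.6e-23), while ITGB6, a subunit of an activator of latent TGF-β, rose (0.83 ± 0.23, adjusted p = 0.0031). Without shControl replicate 2 the count of lowered members was 4. Of collagens, 3 of 24 tested members were raised and 3 lowered, near the background, and 12 of 36 were not tested. COL14A1, a fibril-associated collagen, rose (1.58 ± 0.14, adjusted p = 3.9e-28).

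Of epithelial and mesenchymal markers, 6 of 23 tested members were raised and 3 lowered. CDH6 (chr5:31193793-31329253), the kidney cadherin of the proximal tubule, had 13712, 14457 and 13453 in shControl, 28923, 28741 and 26226 in shARNT and 44320.2, 47941 and 44813 in shBMAL1, a pooled change of 1.41 ± 0.19 (SE, adjusted p = 2.7e-11). CLDN2 (chrX:106143394-106174091), the leaky-junction claudin of that segment, had 821, 951 and 769 in shControl, 2019, 2231 and 1885 in shARNT and 2992, 2709 and 2545 in shBMAL1, a change of 1.501 ± 0.15 (SE, adjusted p = 1.5e-20). All 3 groups were separated for each gene, in the order shControl, shARNT, shBMAL1. TNC, a mesenchymal matrix protein, fell (-0.58 ± 0.15, adjusted p = 0.0024), as did the repressor ZEB1 (-0.44 ± 0.13, adjusted p = 0.01) and VIM, the intermediate filament vimentin (-0.19 ± 0.06, adjusted p = 0.0088). Mesenchymal markers also rose: FN1, fibronectin (0.32 ± 0.12, adjusted p = 0.049), and ZEB2, a paralog of ZEB1 (0.21 ± 0.08, adjusted p = 0.058), both named after their values were seen. FN1 was not called without shControl replicate 1 or 3 (adjusted p = 0.21 and 0.24). ZEB2 was not called without any of the 3 control or 3 shARNT libraries (adjusted p = 0.11 to 0.21), with the replicate block (adjusted p = 0.18) or with the correction for GC content (adjusted p = 0.16). The count of raised markers was 3 without shControl replicate 1 or 2.

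Of receptor tyrosine kinases, 8 of 32 tested members were raised and 4 lowered, and 11 of 43 were not tested. EPHA4, an ephrin receptor, had 526, 623 and 575 in shControl, 1119.6, 1088 and 1028 in shARNT and 1768, 1585 and 1487 in shBMAL1, a pooled change of 1.23 ± 0.18 (SE, adjusted p = 5.3e-10). FGFR4 rose (0.57 ± 0.12, adjusted p = 6e-05), and AXL, a receptor tied to an invasive state, fell (-0.54 ± 0.09, adjusted p = 2.3e-07). The raised count was 5 in edgeR, 3 or 4 without any single control library, 4 or 5 without any single shBMAL1 library, 4 with the replicate block, 4 at an adjusted p under 0.05 and 3 when a call in each knockdown alone was required.

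Cell death genes, including p53 targets, had 11 of 33 tested members raised and 3 lowered, with a median of 0.11. BCL2L11 (chr2:111876955-111926021), the pro-apoptotic protein BIM, had 1391, 1315 and 1217 in shControl, 2293, 2199 and 2287 in shARNT and 2804, 3271 and 2907 in shBMAL1, a pooled change of 1.01 ± 0.14 (SE, adjusted p = 2.8e-11). TP53INP1, a p53 target tied to autophagy, rose (0.89 ± 0.16, adjusted p = 5.4e-07), while TNFRSF10B, the death receptor DR5, fell (-0.57 ± 0.05, adjusted p = 4.2e-23). Of G1 regulators, 7 of 27 were raised and 6 lowered. CDK6 rose (0.67 ± 0.10, adjusted p = 4.5e-10), and so did its inhibitor CDKN2C (0.54 ± 0.08, adjusted p = 1.1e-08), whereas CCND1, the cyclin that activates CDK6, fell (-0.71 ± 0.11, adjusted p = 2.4e-08).

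Of lysosomal genes and MiT factors, 14 of 46 tested members were raised and 5 lowered, with a median of 0.17. NEU1, the lysosomal sialidase, had 2660.4, 2646 and 2474 in shControl, 4362, 4195 and 4264 in shARNT and 5255, 4631 and 4251 in shBMAL1, a pooled change of 0.79 ± 0.09 (SE, adjusted p = 3.6e-16). TFE3, a MiT factor that drives lysosomal genes, fell (-0.39 ± 0.10, adjusted p = 0.00078), as did the cathepsins CTSK (-0.86 ± 0.21, adjusted p = 0.001) and CTSS (-0.69 ± 0.22, adjusted p = 0.016). Another MiT factor and other cathepsins rose, namely MITF (0.51 ± 0.16, adjusted p = 0.015), CTSA (0.21 ± 0.08, adjusted p = 0.048) and CTSD (0.43 ± 0.06, adjusted p = 2.5e-09), all named after their values were seen. CTSA was not called without any of the 3 control libraries (adjusted p = 0.125 to 0.261) or with the replicate block (adjusted p = 0.11). Without shControl replicate 3 the counts were 9 raised and 3 lowered.

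Mitochondrially encoded subunits of the respiratory chain had 12 of 13 members raised and none lowered, with a median of 0.50. ND5, a subunit of complex I, had 83788, 107010.0 and 128088 in shControl, 133450.0, 134001 and 160526 in shARNT and 166793, 168139 and 161928 in shBMAL1, a pooled change of 0.54 ± 0.14 (SE, adjusted p = 0.0012). The control libraries of this list were widely spread, and 7 members were raised without shControl replicate 1. Nuclear subunits of the same complexes had 8 of 75 raised and 1 lowered, with a median of 0.08, against 10.8% of all genes raised. The raised count was 5 without any single control library and 20 in the 3-group fit (26.7% of the list, against 15.1% of all genes in that fit).

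COX7C (chr5:85913745-85916779), a small subunit of cytochrome oxidase, had 345, 369.9 and 422 in shControl, 946, 981 and 910.4 in shARNT and 1206, 1345 and 1049 in shBMAL1, a pooled change of 1.502 ± 0.14 (SE, adjusted p = 6.2e-23). It has processed copies in the genome with which reads could be shared. Mitochondrial ribosomal proteins had 14 of 77 raised and none lowered, with a median of 0.06 and with MRPS6 at 0.52 ± 0.10 (SE, adjusted p = 1.5e-05). None of those 14 differed between the knockdowns in the direct comparison, against 39.0% of all raised common genes tested in it. The 14 all changed by less than 1.5-fold. The raised count of the list was 7 without shControl replicate 1, 9 without shControl replicate 2 and 24 in the 3-group fit.

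Replication-dependent histones, whose mRNAs normally lack a poly(A) tail, had 12 of 23 tested members raised and none lowered, the largest median of the lists at 1.03, with 47 of 70 not tested. HIST1H1C, a linker histone, had 82.5, 76.97 and 76.8 in shControl, 153, 152 and 175 in shARNT and 283, 261 and 288 in shBMAL1, a pooled change of 1.47 ± 0.25 (SE, adjusted p = 2.1e-07). HIST1H2AC changed by 1.66 ± 0.35 (SE, adjusted p = 6.4e-05) and HIST1H2BD by 1.502 ± 0.31 (SE, adjusted p = 3.9e-05). Histone genes are near-identical to each other, and the libraries were made from mRNA. The count was 6 without shControl replicate 1, 7 without shControl replicate 2, 7 at an adjusted p under 0.05, and 5 when a call in each knockdown alone was required.

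The nuclear-retained RNAs NEAT1 and MALAT1 both rose. NEAT1 (chr11:65190245-65213011), the scaffold of paraspeckles, had 5735, 5522 and 5677 in shControl, 11358, 9397 and 12403 in shARNT and 16731, 16196 and 18353 in shBMAL1, a pooled change of 1.32 ± 0.18 (SE, adjusted p = 9.9e-11). MALAT1 (chr11:65265111-65275544), a speckle RNA, had 2462, 2179 and 2019.8 in shControl, 4509, 3867 and 4745 in shARNT and 3901, 4654 and 4868 in shBMAL1, a change of 0.99 ± 0.11 (SE, adjusted p = 3.4e-18), with a direct difference of 0.03 ± 0.09 (adjusted p = 0.85). The list of nuclear-retained and host RNAs as a whole had 4 of 19 members raised and 4 lowered. The share of mitochondrial reads, the histones and these nuclear RNAs moved with the knockdowns together, and their part in the other results was not tested.

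**Figure D3:**
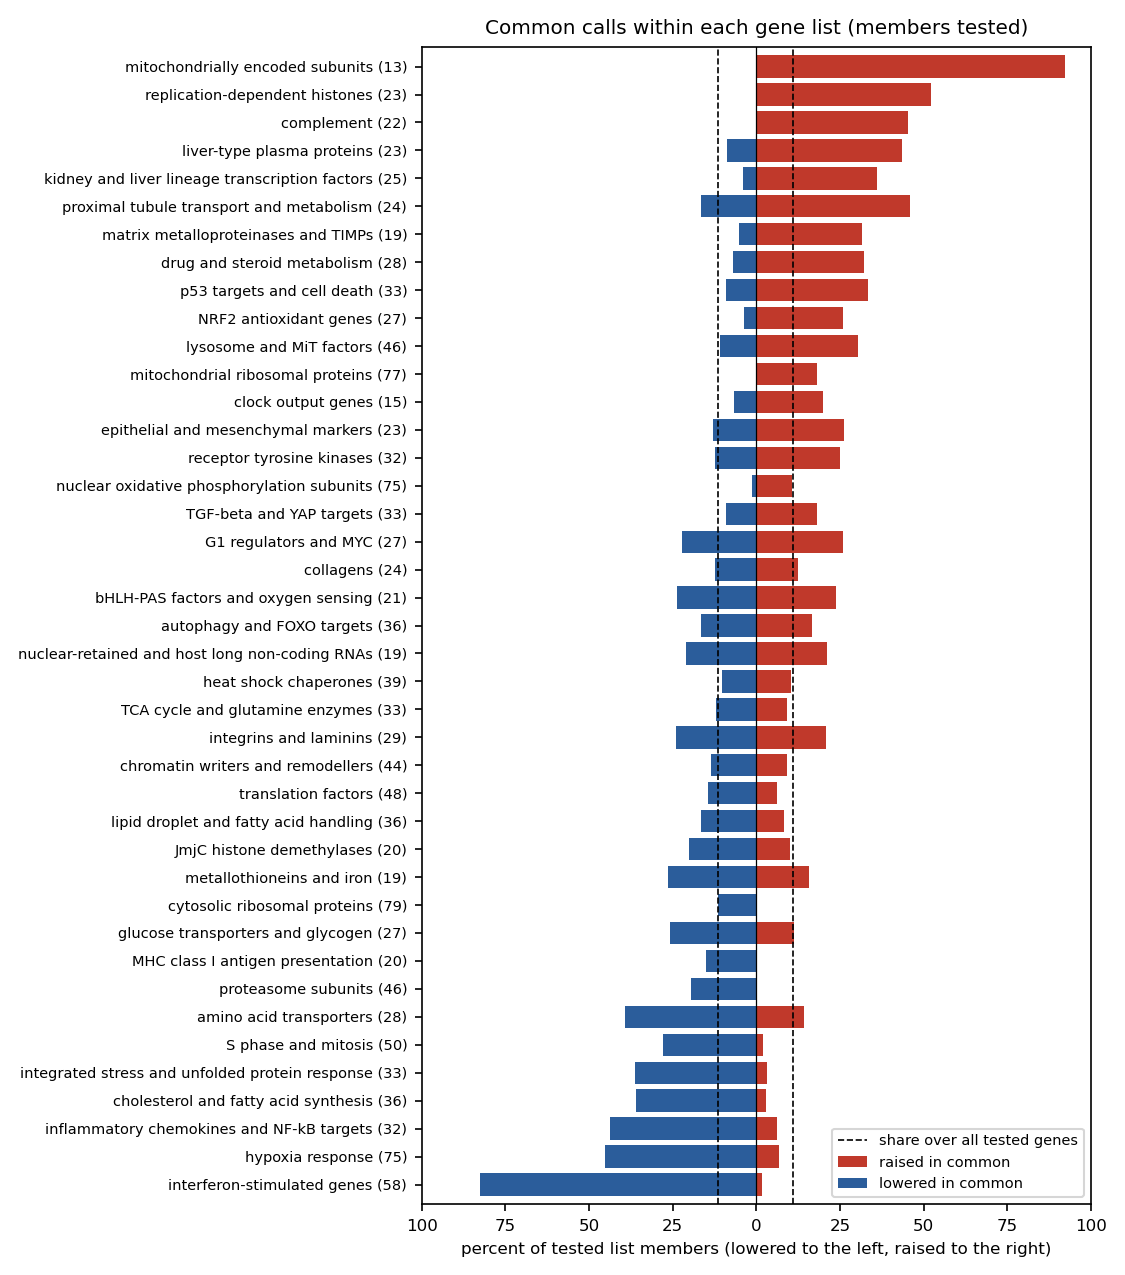
Share of the tested members of each of 41 gene lists raised in common (red, right) and lowered in common (blue, left), in percent, with the number tested in brackets; dashed lines mark 10.8% and 11.4%, the shares over all genes tested. Mitochondrially encoded subunits, histones, proximal tubule genes and complement have the largest raised shares, and interferon-stimulated genes, hypoxia response and inflammatory chemokines the largest lowered shares.

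The 12 most lowered common genes were OAS2, EPSTI1, MX2, OAS1, MX1, IFI27, ASB2, CMPK2, LOC107987338, ALOX5AP, CSF2 and CTSW, out of 1560 lowered genes with separated libraries and the same minimum level. Of these, OAS2, EPSTI1, MX2, OAS1, MX1, IFI27 and CMPK2 belong to the interferon-stimulated list. OAS2 (chr12:113416200-113449528), a synthetase of the oligoadenylates that activate RNase L, had normalised read counts of 1164, 1078 and 1183 in shControl, 64.3, 89.4 and 79.5 in shARNT and 63.5, 77.6 and 57.8 in shBMAL1. It fell to 0.0631 of its control level, with a pooled log2 fold change of -3.99 ± 0.13 (SE, adjusted p = 4.9e-188). The knockdowns overlapped, and the direct difference was -0.23 ± 0.27 (adjusted p = 0.58).

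OAS1 (chr12:113343661-113371024), a synthetase of the same kind, had 1896, 1962 and 1815 in shControl, 298, 347 and 338 in shARNT and 273, 261 and 177 in shBMAL1, a pooled change of -2.74 ± 0.17 (SE, adjusted p = 4.7e-54). MX1 (chr21:42791947-42841998), an antiviral dynamin-like GTPase, had 676, 733 and 692 in shControl, 135, 150.2 and 107 in shARNT and 99.3, 165 and 107 in shBMAL1, a change of -2.46 ± 0.16 (SE, adjusted p = 3.9e-48). MX2 (chr21:42733926-42781320), its paralog, had 287, 269 and 296 in shControl, 38.98, 58.9 and 49.7 in shARNT and 26.8, 28.2 and 24.5 in shBMAL1, a change of -2.91 ± 0.25 (SE, adjusted p = 9.9e-29). No knockdown library reached the control range for any of them.

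EPSTI1 (chr13:43460524-43566407), an interferon-induced stromal interaction protein, had 311, 279 and 253 in shControl, 37.03, 39.3 and 53.7 in shARNT and 42.7, 58.5 and 30.4 in shBMAL1, a change of -2.69 ± 0.20 (SE, adjusted p = 6.1e-38). Its fall was close to the same in both knockdowns (-2.69 and -2.68 on the log2 scale). IFI27 (chr14:94571182-94583032), a small mitochondrial membrane protein, had 606, 639.8 and 672 in shControl, 102, 96.2 and 110.3 in shARNT and 156, 157 and 117 in shBMAL1, a change of -2.38 ± 0.17 (SE, adjusted p = 9.5e-43). CMPK2 (chr2:6980701-7006766), a mitochondrial nucleotide kinase next to RSAD2, had 165, 111 and 113 in shControl, 31.2, 44.2 and 27.8 in shARNT and 17.9, 30.2 and 27.4 in shBMAL1, a change of -2.12 ± 0.27 (SE, adjusted p = 3.9e-13).

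The other 5 of the 12 have roles outside the interferon list. ASB2 (chr14:94400512-94443085), a substrate receptor of a cullin ubiquitin ligase, had 246, 265 and 235 in shControl, 73.1, 71.7 and 32.8 in shARNT and 38.7, 18.1 and 24.5 in shBMAL1, a change of -2.52 ± 0.36 (SE, adjusted p = 1.8e-10). ALOX5AP (chr13:31287615-31338563), which presents arachidonate for leukotriene synthesis, had 153, 252 and 141 in shControl, 29.2, 30.4 and 39.8 in shARNT and 64.5, 54.4 and 33.3 in shBMAL1, a change of -2.12 ± 0.29 (SE, adjusted p = 5.7e-11). CSF2 (chr5:131409482-131411863), the cytokine GM-CSF and a member of the NF-κB list, had 93.6, 80.97 and 130.4 in shControl, 24.4, 14.7 and 20.9 in shARNT and 33.8, 35.3 and 20.6 in shBMAL1, a change of -2.03 ± 0.30 (SE, adjusted p = 8.5e-10).

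CTSW (chr11:65647280-65651212), a cathepsin best known from cytotoxic lymphocytes, had 151, 149 and 185 in shControl, 22.4, 78.6 and 35.8 in shARNT and 57.6, 40.3 and 45.04 in shBMAL1, a change of -1.79 ± 0.30 (SE, adjusted p = 1.8e-07), while CD3E was at 0. LOC107987338, an uncharacterised locus, had 439, 444 and 428 in shControl, 116, 131 and 101 in shARNT and 101, 101 and 111 in shBMAL1, a change of -1.99 ± 0.13 (SE, adjusted p = 5.5e-53). For ALOX5AP, CSF2, CTSW and LOC107987338 the direct comparison of the knockdowns did not pass the threshold (adjusted p = 0.21, 0.37, 0.94 and 0.65).

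**Figure D4:**
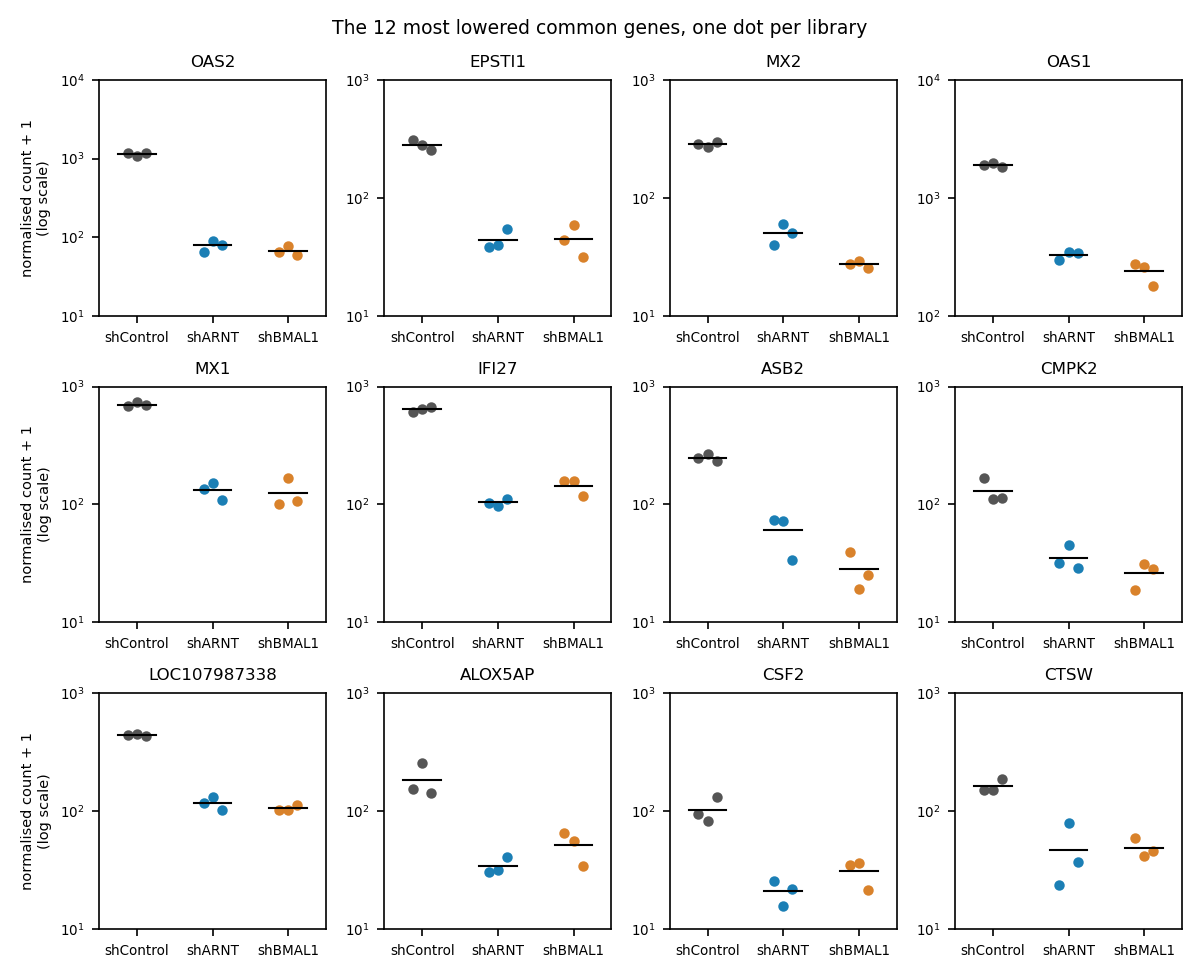
Normalised read counts plus 1 on a log axis for the 12 most lowered common genes, with 1 dot per library, a bar at the group mean and 3 libraries per group. In every panel the 6 knockdown libraries lie below the 3 control libraries, and shARNT and shBMAL1 lie close together for OAS2, EPSTI1, MX1 and LOC107987338.

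Of 58 interferon-stimulated genes, all tested, 48 were lowered in common (82.8%), 1 was raised and 9 did not pass the test, with a median log2 fold change of -0.73. Of the 49 common genes, 15 differed between the knockdowns, 12 of them lower in shBMAL1. Among all lowered common genes tested directly, 837 of 1965 differed (42.6%), 626 of them lower in shBMAL1. GBP2 (chr1:89571815-89616139), a guanylate-binding GTPase, was the single member raised, with 171, 164 and 175 in shControl, 380.0, 354 and 281 in shARNT and 387, 369.9 and 289 in shBMAL1 and a change of 1.01 ± 0.15 (SE, adjusted p = 3.1e-10). MHC class I antigen presentation, which interferon also induces, had 3 of 20 members lowered and none raised, and 9 lowered in the 3-group fit. The 3 were TAP1, the peptide transporter (-0.67 ± 0.10, adjusted p = 1.7e-09), TAPBP, its tapasin partner (-0.46 ± 0.08, adjusted p = 2.7e-07), and PSMB9, an immunoproteasome subunit (-0.40 ± 0.11, adjusted p = 0.0025).

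Many interferon-stimulated genes are known to carry an ISRE, so the promoters were searched for it. The 250 bases before the start were taken from RefSeq on GRCh38.p14, where 12533 of the 17320 tested genes had an entry. The ISRE core was searched on both strands as a pair of GAAA repeats 2 bases apart. It was present in 22 of 42 lowered interferon-stimulated genes with an entry (52.4%), against 2.57% of all tested genes and 24 of 46 tested genes of the whole interferon list (52.2%). Among all genes raised in common the share was 1.95%, and among all lowered in common it was 3.96%. A match is a description of the sequence and was not tested for binding.

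The promoters of EPSTI1, IFI27, IFI44L and IFI6 are shown 5′ to 3′ on the strand of the gene, as examples among the most lowered members that hold the element, with the ISRE core in capitals. IFI44L and IFI6, both interferon-induced, were not among the genes named by rule and were chosen after their values were seen. Their pooled changes were -1.73 and -1.64. The regions are chr13:42992242-42992491 (minus strand), chr14:94110486-94110735 (plus), chr1:78620198-78620447 (plus) and chr1:27672193-27672442 (minus).
EPSTI1: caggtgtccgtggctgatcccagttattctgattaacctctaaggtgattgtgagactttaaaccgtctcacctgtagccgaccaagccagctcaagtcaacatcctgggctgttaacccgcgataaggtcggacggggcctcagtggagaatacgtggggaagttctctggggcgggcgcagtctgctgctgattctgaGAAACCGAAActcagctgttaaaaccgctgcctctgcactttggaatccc
IFI27: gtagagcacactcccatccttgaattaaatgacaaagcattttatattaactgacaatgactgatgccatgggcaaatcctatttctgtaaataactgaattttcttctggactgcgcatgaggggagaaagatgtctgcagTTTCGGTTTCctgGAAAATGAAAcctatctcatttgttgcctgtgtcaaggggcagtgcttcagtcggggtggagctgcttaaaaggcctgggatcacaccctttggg
IFI44L: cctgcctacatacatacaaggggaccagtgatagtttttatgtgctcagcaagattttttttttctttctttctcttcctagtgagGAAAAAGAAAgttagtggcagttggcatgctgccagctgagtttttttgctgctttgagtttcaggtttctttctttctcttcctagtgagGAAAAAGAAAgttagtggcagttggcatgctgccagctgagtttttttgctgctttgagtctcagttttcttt
IFI6: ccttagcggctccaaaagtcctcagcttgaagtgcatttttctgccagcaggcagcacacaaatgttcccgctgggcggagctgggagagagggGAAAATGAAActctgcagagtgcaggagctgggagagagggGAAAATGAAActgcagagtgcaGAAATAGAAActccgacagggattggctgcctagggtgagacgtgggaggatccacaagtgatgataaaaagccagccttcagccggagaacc

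The element lies 41 to 50 bases before the start in EPSTI1. IFI27 holds 2 copies, the nearer at 86 to 95 bases, IFI44L holds 2, the nearer at 64 to 73 bases, and IFI6 holds 3, the nearest at 84 to 93 bases. MX1 and OAS1, which fell as far, hold no pair of GAAA repeats 2 bases apart in this window. With 1 base between the repeats (GAAANGAAA), a spacing searched after the first results were seen, MX1 holds a match 11 to 19 bases and OAS1 9 to 17 bases before the start. Either spacing was found in 27 of 42 lowered interferon-stimulated genes (64.3%), in 30 of 46 tested genes of that list (65.2%) and in 4.61% of all tested genes.

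The hypoxia response list had 34 of 75 tested members lowered (45.3%) and 5 raised, with a median of -0.25. F3 (chr1:94994729-95007315), tissue factor, the trigger of coagulation, had 2285, 2064 and 2233 in shControl, 558, 537 and 519.8 in shARNT and 817, 735 and 735 in shBMAL1, a change of -1.75 ± 0.15 (SE, adjusted p = 1.5e-27). For F3 the groups were separated, and shARNT was lower than shBMAL1 (direct 0.50 ± 0.10, adjusted p = 9e-06).

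ANGPTL4 (chr19:8428173-8439254), an inhibitor of lipoprotein lipase, had 2989, 2721 and 3239 in shControl, 1338, 1317 and 1411 in shARNT and 1600.5, 1187 and 1385 in shBMAL1, a change of -1.12 ± 0.10 (SE, adjusted p = 2.1e-24), with overlap between the knockdowns. SLC2A1 (chr1:43391024-43424564), the glucose transporter GLUT1, had 78786, 80483 and 72829 in shControl, 35491, 37326 and 33660.1 in shARNT and 53659, 48731 and 45634 in shBMAL1, a change of -0.87 ± 0.15 (SE, adjusted p = 2.5e-07). ACKR3 (chr2:237476430-237490997), a scavenger receptor of CXCL12, had 1286, 1403 and 1329 in shControl, 128, 155 and 143 in shARNT and 801, 617 and 517 in shBMAL1, with shARNT far below shBMAL1 and both below every control library. Against shControl it fell in each knockdown alone, with changes of -3.23 ± 0.11 in shARNT (adjusted p = 9.4e-184) and -1.06 ± 0.13 in shBMAL1 (adjusted p = 1.1e-15). The pooled fit counts the difference between the knockdowns (direct 2.18 ± 0.16) as spread, and there the change was -1.77 ± 0.67 (adjusted p = 0.048). It did not pass with the replicate block (adjusted p = 0.11) or without any of the 3 control libraries (adjusted p = 0.15 to 0.18).

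The 39 common genes of the hypoxia list included 25 that differed directly, 20 of them higher in shBMAL1 than in shARNT. CA9, a hypoxia marker, is a case outside the common genes: it ranged from 108 to 146 in shControl, 16.9 to 18.5 in shARNT and 245 to 290 in shBMAL1.

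The 5 hypoxia genes that rose were KDM3A, IGFBP1, PFKFB3, GBE1 and PLOD1. KDM3A (chr2:86667770-86719839), a histone H3K9 demethylase, had 1426, 1510.5 and 1378 in shControl, 2124, 1961 and 2144 in shARNT and 2210.1, 2175 and 2264 in shBMAL1, a pooled change of 0.58 ± 0.07 (SE, adjusted p = 3.7e-13). The control and knockdown libraries were separated, and the knockdowns did not differ past the threshold (direct 0.09 ± 0.07, adjusted p = 0.38). PFKFB3, which makes the activator of phosphofructokinase, rose (0.38 ± 0.10, adjusted p = 0.0018). The count raised was 2 without shControl replicate 1 and 3 without shControl replicate 3. IGFBP1, an insulin-like growth factor binder, was not called without shControl replicate 1 (adjusted p = 0.17). GBE1, the glycogen branching enzyme, was not called without any of the 3 control libraries (adjusted p = 0.11 to 0.26).

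HIF1A (chr14:62162231-62214977), which encodes the other main HIFα subunit, had 2594, 2708 and 2499 in shControl, 3476, 3453 and 3451 in shARNT and 3989, 4037 and 3921 in shBMAL1. It rose by 0.52 ± 0.08 (SE, adjusted p = 6.4e-08) on the log2 scale, with all groups separated and shBMAL1 above shARNT (direct 0.20 ± 0.06, adjusted p = 0.0057). The core of the hypoxia response element, ACGTG or GCGTG on either strand, was found before the start of 55.1% of all tested genes. It was found in 52.3% of genes raised in common, 52.6% of genes lowered in common and 18 of 27 lowered hypoxia genes (66.7%), against 50 of 62 tested genes of the whole hypoxia list (80.6%). The E-box CACGTG, which overlaps the core ACGTG, was found in 8.51% of all tested, 9.66% of raised and 7.53% of lowered genes. It was found in 2 of 27 lowered hypoxia genes (7.41%), against 18 of 62 tested genes of the hypoxia list (29.0%).

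The promoters of KDM3A (chr2:86441121-86441370, plus strand) and HIF1A (chr14:61695263-61695512, plus strand) on GRCh38.p14 are shown with the single core of each in capitals. They were chosen after their values were seen, as a hypoxia gene and a HIFα gene that rose.
KDM3A: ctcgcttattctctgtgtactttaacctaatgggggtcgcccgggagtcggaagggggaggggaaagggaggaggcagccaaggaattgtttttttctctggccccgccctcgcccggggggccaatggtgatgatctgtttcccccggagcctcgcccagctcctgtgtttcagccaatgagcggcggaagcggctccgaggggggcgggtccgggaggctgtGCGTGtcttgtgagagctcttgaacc
HIF1A: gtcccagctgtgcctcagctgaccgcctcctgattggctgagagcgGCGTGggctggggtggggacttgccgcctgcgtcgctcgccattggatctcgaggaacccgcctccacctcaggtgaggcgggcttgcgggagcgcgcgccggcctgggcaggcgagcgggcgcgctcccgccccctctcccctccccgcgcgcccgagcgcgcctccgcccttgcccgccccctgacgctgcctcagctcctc

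The core lies 22 to 26 bases before the start of KDM3A and 200 to 204 bases before that of HIF1A. F3 holds none in its 250 bases.

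Across the bHLH-PAS factors and oxygen sensors, 5 of 21 tested members were raised and 5 lowered, and 2 of the lowered members were the shRNA targets ARNT and BMAL1 (ARNTL). AHR, the dioxin receptor, which also pairs with ARNT, had 2689, 2939 and 2737 in shControl, 3393, 3835 and 3597 in shARNT and 5355, 5961 and 5637 in shBMAL1, a pooled change of 0.73 ± 0.18 (SE, adjusted p = 0.001). ARNT2, a paralog of ARNT, had 844, 787 and 783 in shControl, 565, 536 and 496 in shARNT and 619.5, 568 and 664 in shBMAL1, a change of -0.49 ± 0.11 (SE, adjusted p = 0.00013). The raised count was 3 without shControl replicate 3, and the lowered count was 3 in edgeR, 3 without shControl replicate 1 and 2 without shControl replicate 2 or 3. Of clock output genes, 3 of 15 were raised and 1 lowered, but 9 members lay on opposite sides of shControl in the 2 knockdowns. The list's median change was 0.36 in shARNT and -0.30 in shBMAL1. The called genes included PER2, a repressor of CLOCK and BMAL1 (0.40 ± 0.12, adjusted p = 0.0079), and BHLHE40, a repressor that is also a hypoxia gene and fell (-0.41 ± 0.09, adjusted p = 0.00012). JmjC demethylases and related proteins, a list of which KDM3A is a member, had 2 of 20 raised and 4 lowered. Among the lowered were JARID2, a Polycomb partner, at -0.39 ± 0.09 (SE, adjusted p = 0.00013) and KDM7A at -0.55 ± 0.12 (SE, adjusted p = 0.00022).

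Inflammatory chemokines and NF-κB targets had 14 of 32 tested members lowered (43.8%) and 2 raised, with a median of -0.31. IL6 (chr7:22765503-22771621) had 246, 288 and 249 in shControl, 143, 119.8 and 123.2 in shARNT and 81.4, 93.7 and 77.4 in shBMAL1, a pooled change of -1.29 ± 0.20 (SE, adjusted p = 1.3e-08). CXCL8 (chr4:74606236-74609433), the neutrophil chemokine IL-8, had 157, 172 and 187 in shControl, 65.3, 68.7 and 68.6 in shARNT and 73.5, 96.7 and 104 in shBMAL1, a change of -1.11 ± 0.19 (SE, adjusted p = 3.3e-07). The 2 raised members were CX3CL1, a membrane-bound chemokine (0.77 ± 0.21, adjusted p = 0.0041), and VCAM1, a leukocyte adhesion molecule (0.46 ± 0.10, adjusted p = 9.6e-05). Of TGF-β and YAP targets, 6 of 33 were raised and 3 lowered, with INHBA, an activin subunit, at -1.34 ± 0.26 (SE, adjusted p = 7.8e-06); the raised count was 3 without shControl replicate 1 or 2.

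The integrated stress and unfolded protein responses, which adjust translation and amino acid supply, had 12 of 33 tested members lowered (36.4%) and 1 raised, with a median of -0.29. In the 3-group fit 19 were lowered. TRIB3, a pseudokinase induced by ATF4, had 8257, 8189 and 7856 in shControl, 3999.9, 4197 and 3787 in shARNT and 5954, 5392 and 5118 in shBMAL1, a pooled change of -0.77 ± 0.14 (SE, adjusted p = 2.9e-06). PPP1R15A, the phosphatase subunit that ends the response, changed by -0.60 ± 0.14 (SE, adjusted p = 0.00034). Amino acid transporters, many of them ATF4 targets, had 11 of 28 lowered (39.3%) and 4 raised. SLC1A4, a neutral amino acid carrier, had 3692, 3946 and 3678 in shControl, 2296, 2334 and 2558 in shARNT and 2472, 2419 and 2393 in shBMAL1, a change of -0.64 ± 0.06 (SE, adjusted p = 3.2e-21). SLC7A5, a leucine exchanger, changed by -0.60 ± 0.13 (SE, adjusted p = 7e-05) and SLC7A11, the cystine exchanger, by -0.57 ± 0.15 (SE, adjusted p = 0.0025). SLC7A2, a cationic carrier, rose (0.68 ± 0.12, adjusted p = 2.2e-07), as did SLC3A1, a cystine transport subunit of the proximal tubule (0.60 ± 0.12, adjusted p = 7.5e-06).

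Cholesterol and fatty acid synthesis had 13 of 36 tested members lowered (36.1%) and 1 raised, with a median of -0.17. ACACB, an acetyl-CoA carboxylase, changed by -0.53 ± 0.14 (SE, adjusted p = 0.0021) and FDPS, farnesyl diphosphate synthase, by -0.34 ± 0.09 (SE, adjusted p = 0.0014). The lowered count was 7 without shControl replicate 1, 4 without shControl replicate 2 and 23 in the 3-group fit. Of lipid droplet and fatty acid handling genes, 6 of 36 were lowered and 3 raised, and of glucose transporters and glycogen enzymes, 7 of 27 were lowered and 3 raised. PYGL, the liver glycogen phosphorylase, had 7243, 7254 and 6447 in shControl, 4225, 4249 and 4051 in shARNT and 3831, 3442 and 3446 in shBMAL1, a change of -0.85 ± 0.10 (SE, adjusted p = 4.7e-16). The glucose count was 3 without shControl replicate 1, 4 without shControl replicate 2 or 3 and 11 in the 3-group fit. The lipid droplet count was 3 without shControl replicate 1.

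Genes of S phase and mitosis had 14 of 50 tested members lowered (28.0%) and 1 raised, with a median of -0.10. UBE2C, a ubiquitin-conjugating enzyme of mitotic exit, changed by -0.49 ± 0.08 (SE, adjusted p = 1.6e-08), AURKB, a mitotic kinase, by -0.48 ± 0.14 (SE, adjusted p = 0.0055) and BUB1, a checkpoint kinase, by -0.43 ± 0.13 (SE, adjusted p = 0.007). The count was 7 to 9 without any single control library, 7 with the replicate block, 9 at an adjusted p under 0.05 and 24 in the 3-group fit. Proteasome subunits had 9 of 46 lowered and none raised, with a median of -0.13, which was -0.01 in shARNT and -0.29 in shBMAL1, and 22 members lay on opposite sides of shControl. That count was 3 without shControl replicate 2 or 3, 5 with the replicate block, 5 at an adjusted p under 0.05 and 17 in the 3-group fit.

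Cytosolic ribosomal proteins had 9 of 79 members lowered (11.4%) and none raised, with RPL10 at -0.32 ± 0.08 (SE, adjusted p = 0.00073). That count was 2 without shControl replicate 3, 4 without shControl replicate 2, 4 with the replicate block, 5 in edgeR, 5 at an adjusted p under 0.05, 5 with the correction for GC content and 25 in the 3-group fit. Translation factors had 7 of 48 lowered and 3 raised. EIF4EBP1, an inhibitor of cap-dependent initiation, changed by -0.77 ± 0.10 (SE, adjusted p = 2.7e-11), and the lowered count was 3 without shControl replicate 2, 4 without shControl replicate 3, 4 with the replicate block and 11 in the 3-group fit.

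Chromatin writers and remodellers had 6 of 44 lowered and 4 raised, with KMT2D, an H3K4 methyltransferase, at -0.43 ± 0.07 (SE, adjusted p = 1.5e-07). Without shControl replicate 2 the lowered count was 3, and in the 3-group fit it was 10, with 9 raised. Heat shock chaperones had 4 of 39 raised and 4 lowered, enzymes of the TCA cycle and glutamine use 3 of 33 raised and 4 lowered. In the 3-group fit 11 chaperones were lowered, and 8 TCA enzymes were raised and 8 lowered. Autophagy and FOXO targets had 6 of 36 raised and 6 lowered. Metallothioneins and iron genes had 3 of 19 raised and 5 lowered, with MT2A, a metallothionein with near-identical paralogs, at -0.48 ± 0.10 (SE, adjusted p = 1.8e-05) and FTH1, the ferritin heavy chain, at 0.32 ± 0.07 (SE, adjusted p = 6e-05). Autophagy counts were 3 lowered without shControl replicate 3 and 10 raised in the 3-group fit.

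Of the 82 list counts, 58 moved by over 1.5 times when a change of at least 1.5-fold was required as well, a rule that kept 4.75% raised and 3.37% lowered of all genes tested. The raised counts were then 12 for histones, 11 for proximal tubule genes, 9 for complement, 8 for liver-type plasma proteins, 7 for drug and steroid metabolism and 5 for metalloproteinases. The lowered counts were 36 for interferon-stimulated genes and 10 for inflammatory chemokines and NF-kB targets, and these 8 counts stayed within 1.5 times.

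Hypoxia genes had 17 lowered and none raised at that minimum. Of raised counts, mitochondrially encoded subunits went from 12 to 2, lysosomal genes from 14 to 3, mitochondrial ribosomal proteins from 14 to 0, nuclear oxidative phosphorylation subunits from 8 to 1, TGF-β and YAP targets from 6 to 0 and autophagy genes from 6 to 1. Cell death genes went from 11 to 5, lineage factors from 9 to 5, receptor tyrosine kinases from 8 to 4, antioxidant genes from 7 to 4, G1 regulators from 7 to 3, and integrins and laminins and the epithelial and mesenchymal markers from 6 to 3 each. Of lowered counts, S phase and mitosis went from 14 to 0, cholesterol and fatty acid synthesis from 13 to 1, the stress responses from 12 to 2 and amino acid transporters from 11 to 3. Proteasome subunits and cytosolic ribosomal proteins each went from 9 to 0, autophagy and chromatin genes from 6 to 0, translation factors from 7 to 1, integrins and laminins from 7 to 3, glucose genes from 7 to 4, and lipid droplet genes and G1 regulators from 6 to 2.

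The levels of the lists by library are values on the scale of log2((count + 1) / (mean control count + 1)), taken as the median over tested members. For interferon-stimulated genes the control libraries lay between -0.02 and 0.01, shARNT between -0.68 and -0.57 and shBMAL1 between -0.86 and -0.70. The hypoxia list was lower in shARNT, between -0.45 and -0.43, than in shBMAL1, between -0.25 and -0.15. The complement list stood between 0.19 and 0.29 in shARNT and between 0.83 and 0.96 in shBMAL1. For mitochondrially encoded subunits the control libraries themselves ran from -0.24 to 0.25, close to the 0.30 of the lowest knockdown library.

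**Figure D5:**
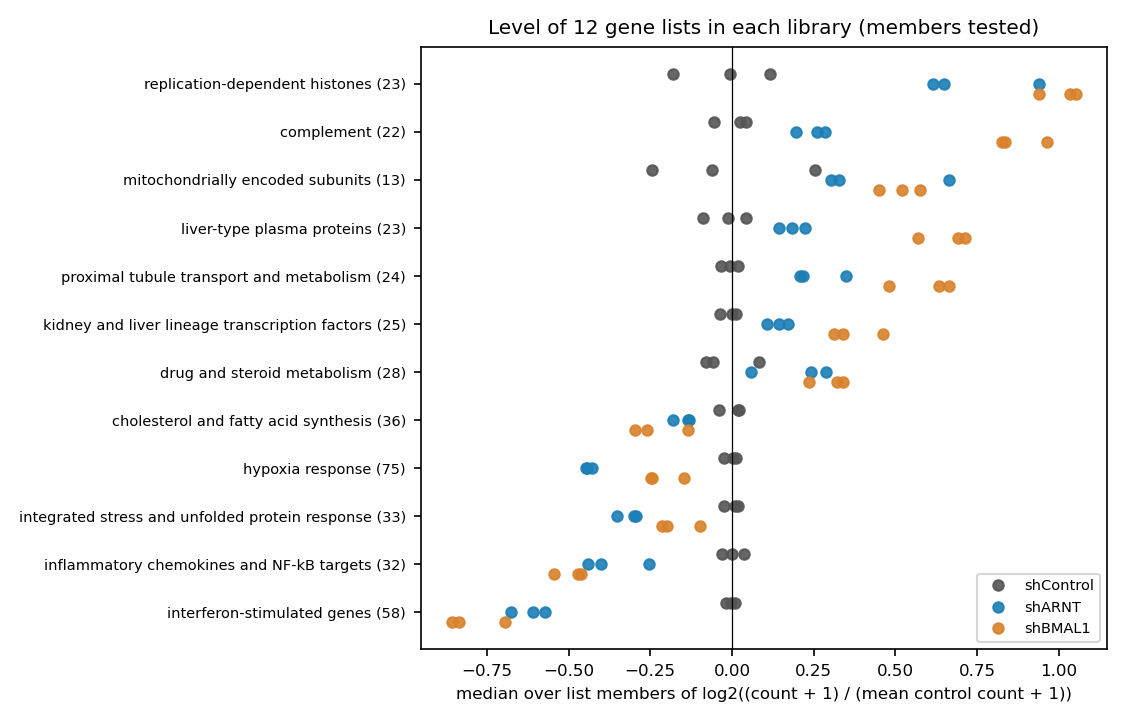
Median over tested members of log2((count + 1) / (mean control count + 1)) for 12 gene lists, with 1 dot per library and 3 libraries per group. Knockdown libraries lie to the right of 0 for the raised lists and to the left for the lowered ones; complement, plasma protein and tubule lists reach further in shBMAL1, and the hypoxia list reaches further in shARNT.

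The size of the common changes was compared between the knockdowns with no control library in the test. Of 1865 raised genes tested directly, 727 differed (39.0%), of which 600 were higher in shBMAL1 and 127 higher in shARNT. Of 1965 lowered genes, 837 differed (42.6%), of which 626 were lower in shBMAL1 and 211 lower in shARNT. Over all genes tested the direct comparison called 35.3%. The change was larger in shBMAL1 for 1284 raised and 1319 lowered genes. All 8 complement genes that differed, all 9 plasma protein genes and 10 of 11 proximal tubule genes were higher in shBMAL1, whereas 20 of 25 hypoxia genes were lower in shARNT.

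The raised and lowered genes differed in base composition. Transcript GC content had a median of 45.6% for raised genes, 50.7% for lowered genes and 47.9% for all tested genes, with a value for 87.4%, 93.7% and 84.2% of them. With each library corrected for GC content the counts were 2055 raised and 1870 lowered, and 1791 and 1735 of those were among the genes called without it.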

How the data were processed

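RNA was measured in 9 libraries of 786-O cells, 3 each of shControl, shARNT and shBMAL1, from stranded mRNA (DNBSEQ). The deposited values are estimated counts per gene. Per the methods, the authors aligned reads to GRCh37 with SeqMan NGen and counted them in ArrayStar, whereas the submitters' processing notes name STAR, DESeq2 and hg38 with no role. The annotation and the strand setting are not given in the sources used here. In the deposited table, 46.3% of cells hold the placeholder 0.009, which was read as 0, and 6.14% of the other cells are fractional. Counts were rounded, 53 rows with a repeated symbol were summed into 1 row per gene, and 28 rows that hold a date in place of a symbol were kept unnamed. Reads of such genes, paralogs and overlapping genes are uncertain.

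The pooled knockdowns were compared with shControl in DESeq2 1.42.0 (R 4.3.3) with Benjamini-Hochberg adjustment and a threshold of 0.1. Each knockdown alone and shBMAL1 against shARNT were fitted in the same way, and genes to which DESeq2 gave no adjusted p were not tested. Normalised read counts are counts divided by DESeq2 size factors. DESeq2 is the main test because it is the tool of the study, and edgeR 4.0.16 was an alternative. The others were a 3-group fit, TMM size factors, a filter on low counts, an adjusted p under 0.05, a 1.5-fold minimum, a call in each knockdown alone, a replicate block, leaving out each library and a GC correction.

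Named genes were the 12 in each direction with the largest smaller change of the 2 knockdowns, among genes with separated libraries and a mean of at least 100 normalised read counts, up to 3 per list and direction, the targets and the markers. The members, lists and markers were chosen with earlier results of these data known. Gene positions are on GRCh37, and promoters come from RefSeq on GRCh38.p14, matched by symbol. Libraries are labelled biological replicates, with no statement of separate cultures, so p-values measure only the spread between them. In the pooled comparison that spread includes the difference between shARNT and shBMAL1, so genes that the knockdowns changed unequally have larger errors there. Some items are not reported here.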

Additional observations from a re-analysis of the deposited data

Results flagged for a closer look

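Of the 127 genes given with values above and tested directly, 77 differed between the 2 knockdowns, and 51 of these were higher in shBMAL1. The test was the direct DESeq2 comparison of shBMAL1 with shARNT at an adjusted p under 0.1. Over all genes tested that comparison called 35.3%. Many of the 127 were named for the size of their change, and some lay in neither common set. The values are log2 differences, shBMAL1 minus shARNT, with 3 libraries on each side.

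Among genes raised in common and higher in shBMAL1, the difference was 3.75 for ITIH2, 3.12 for AQP3, 3.09 for MMP13, 3.02 for SLC2A2, 2.78 for LBP, 1.53 for PPARGC1A, 1.23 for MMP1, 1.22 for HIST1H2AC, 1.07 for NR1H4, 1.05 for HIST1H2BD and 1.02 for CFHR3. It was smaller, but still at least 0.5, at 0.79 for HIST1H1C, 0.73 for LAMA5, 0.71 for CDH6, 0.67 for CX3CL1, 0.65 for AHR, 0.64 for NEFL, 0.63 for NEAT1, 0.58 for EPHA4, 0.58 for ITGB6 and 0.50 for MITF. The remaining such genes had differences of 0.47 for CEBPD, 0.43 for CLDN2, 0.41 for NEBL, 0.41 for BCL2L11, 0.38 for COL14A1, 0.35 for FGFR4, 0.34 for COX7C, 0.27 for PFKFB3, 0.21 for ND5, 0.20 for HIF1A and 0.19 for GBE1. Raised genes that were lower in shBMAL1 than in shARNT had differences of -0.89 for HMOX1, -0.76 for AKR1C1, -0.75 for KCCAT211, -0.32 for FN1, -0.24 for VCAM1, -0.19 for ZEB2 and -0.15 for CTSA.

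Among genes lowered in common, those lower still in shBMAL1 had differences of -1.13 for ASB2, -0.96 for ARNTL, -0.96 for INHBA, -0.89 for MX2, -0.79 for CTSS, -0.62 for IL6, -0.51 for TNC, -0.47 for OAS1, -0.42 for AURKB, -0.42 for PPP1R15A, -0.39 for BUB1, -0.35 for ZEB1, -0.26 for TAP1, -0.25 for TFE3, -0.23 for FDPS and -0.23 for PYGL. Those lower in shARNT had differences of 2.18 for ACKR3, 0.86 for PCK2, 0.78 for IFI6, 0.72 for ARNT, 0.50 for F3, 0.47 for IFI27, 0.47 for SLC2A1, 0.47 for SLC7A11, 0.46 for TRIB3, 0.33 for SLC7A5, 0.33 for IFI44L, 0.28 for CCND1, 0.23 for AXL, 0.16 for BHLHE40, 0.15 for RPL10 and 0.14 for TAPBP. Genes that were in neither common set had differences of 3.90 for CA9, 0.45 for PAX2, 0.18 for EPAS1, -0.23 for CD68, -0.29 for TPRA1 and -0.49 for PAX8.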

How the results depend on the processing

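The counts of 1866 raised, 1972 lowered and 1564 unequal common genes stayed within 1.5 times under edgeR, TMM size factors and a minimum of 10 counts in 3 libraries. So did the GC correction, an alternative added once the values were known (chosen after seeing the data). The 3-group fit called 3100 lowered genes, and an adjusted p under 0.05 left 1040 unequal genes. A minimum of 1.5-fold left 822 raised, 583 lowered and 439 unequal genes, which follows from its construction. Requiring a call in each knockdown alone gave 1106 raised genes, of which 1075 were among the 1866. Leaving out 1 library at a time gave 1109 to 1834 raised, 1258 to 2013 lowered and 962 to 1436 unequal genes. Each lowest value came without a control library, of which only 2 then remain.

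The replicate numbers showed no sign of pairing the samples, though with 3 libraries per group these correlations cannot settle it. Deviations of libraries with the same number correlated between -0.154 and 0.105, and those with different numbers between -0.266 and 0.235. Not every library correlated best with its own number. The replicate block gave 1313 raised, 1467 lowered and 1016 unequal genes.

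Of 201 genes covered by the naming rule, 61 lost their call under some alternative that refitted the data and 0 reversed. The adjusted p under 0.05, the 1.5-fold minimum and the call in each knockdown alone were not part of this check. With 3 control libraries, calls near the threshold rest on each of them, and the fold of a gene at a few reads in shControl depends on those reads.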
